A study of Homo sapiens with 10 samples.

Results

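The JAK kinases and STAT factors described here are JAK1, JAK2, JAK3, STAT2, STAT3, STAT4, STAT5A, STAT5B and STAT6, and the data are the accessible regions (peaks) that ATAC-seq found at these 9 genes in MDA-MB-231 cells, a long-established cell line derived from a human triple-negative breast cancer. ATAC-seq uses the Tn5 transposase to cut and tag accessible DNA. Peaks were chosen by the gene identifier that the deposited annotation gives them or by overlap with the RefSeq span of the gene on hg38, which took 71 of the 161934 peaks in the list. The study has 10 libraries, 5 of ARID1A knockout cells and 5 of control cells, with no other treatment given in the labels. ARID1A is a subunit of the SWI/SNF chromatin remodelling complex. The labels say neither how the knockout was made nor whether it is 1 clone. The list is a union for the whole series, with no value per library, so neither a knockout-control difference nor a replicate error could be computed for any gene, and the depth behind each peak is unknown. The line is aneuploid, and copy number, which may move with peak counts, was not measured.

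JAK kinases sit on the inner side of cytokine receptors and are switched on when a ligand brings the receptor chains together. They phosphorylate the receptor and then STAT factors, which pair through their SH2 domains, enter the nucleus and bind DNA at GAS elements, with the SOCS proteins as feedback inhibitors made by the targets of the pathway. In the mouse mammary gland, prolactin acts through JAK2 and STAT5 to drive milk-producing alveolar cells, and STAT3 acts in involution after weaning. In human breast cancers STAT3 is often found active.

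The start regions of 3 genes show how unlike the sequences at annotated starts were, with or without a peak. The windows run 5′ to 3′ from 250 bases before to 50 bases after a RefSeq start (RefSeq, GRCh38.p14), and capitals mark CpG dinucleotides. The STAT5B and STAT5A windows are shown because the inner STAT5B start faces away from the starts of its paralog STAT5A. The outermost RefSeq start of STAT5B lies inside STAT5A, and no STAT5B window was given for it. The JAK3 window is shown because no peak touched it.
STAT5B, chr17:42276342-42276641, minus strand: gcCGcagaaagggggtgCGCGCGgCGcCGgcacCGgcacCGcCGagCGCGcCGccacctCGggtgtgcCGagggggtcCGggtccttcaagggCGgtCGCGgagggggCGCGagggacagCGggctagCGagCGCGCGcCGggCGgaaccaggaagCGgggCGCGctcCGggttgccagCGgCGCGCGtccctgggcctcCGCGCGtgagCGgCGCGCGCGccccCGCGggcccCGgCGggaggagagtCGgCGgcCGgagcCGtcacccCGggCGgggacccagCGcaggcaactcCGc
STAT5A, outermost start, chr17:42287189-42287488, plus strand: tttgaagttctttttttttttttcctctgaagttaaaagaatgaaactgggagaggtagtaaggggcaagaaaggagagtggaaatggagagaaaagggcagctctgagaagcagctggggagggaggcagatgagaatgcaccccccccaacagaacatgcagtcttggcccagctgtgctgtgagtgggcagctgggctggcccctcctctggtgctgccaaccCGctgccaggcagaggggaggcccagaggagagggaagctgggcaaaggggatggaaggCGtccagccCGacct
STAT5A, inner start, chr17:42288248-42288547, plus strand: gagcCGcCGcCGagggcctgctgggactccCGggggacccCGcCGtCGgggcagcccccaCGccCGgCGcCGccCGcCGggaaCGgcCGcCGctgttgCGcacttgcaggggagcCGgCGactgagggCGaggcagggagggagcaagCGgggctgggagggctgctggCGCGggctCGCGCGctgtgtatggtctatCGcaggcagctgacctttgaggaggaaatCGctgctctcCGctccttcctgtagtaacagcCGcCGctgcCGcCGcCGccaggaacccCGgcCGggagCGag
JAK3, chr19:17847933-17848232, minus strand: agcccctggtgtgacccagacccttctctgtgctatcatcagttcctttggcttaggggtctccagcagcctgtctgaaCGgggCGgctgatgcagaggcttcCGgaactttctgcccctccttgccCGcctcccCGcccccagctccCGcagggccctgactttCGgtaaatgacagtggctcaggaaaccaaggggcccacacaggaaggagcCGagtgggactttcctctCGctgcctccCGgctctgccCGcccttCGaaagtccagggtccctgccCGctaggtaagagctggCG

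A peak lay within 1000 bases of the outermost RefSeq start of 8 of the 9 genes (all but JAK3), against 71.6% of the 19572 protein-coding genes for which this could be decided. The share was not tested, and 9 genes are few. In all 8 genes the peak covered the start base itself. The longest was at STAT6, the factor used by IL-4 and IL-13 receptors, with 2428 bases, longer than 97.7% of the start peaks of protein-coding genes. At JAK1, the kinase shared by interferon, IL-6 family and common gamma chain receptors, it measured 2198 bases (longer than 95.2%). The start peak had 1721 bases at STAT5A and STAT5B, which share it, 1492 bases at STAT3, 1425 bases at JAK2 and 1388 bases at STAT4. STAT2, the partner of IRF9 in the type I interferon response, had the shortest, 918 bases, longer than 22.1% of such peaks. The median over the 8 genes was 1606.5 bases, against 1256 bases over 13873 protein-coding genes with a start peak and known strand. The peak that STAT5A and STAT5B share entered this median for both genes. Peak length depends on depth and on the settings of the peak caller and is no measure of signal.

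**Figure D1:**
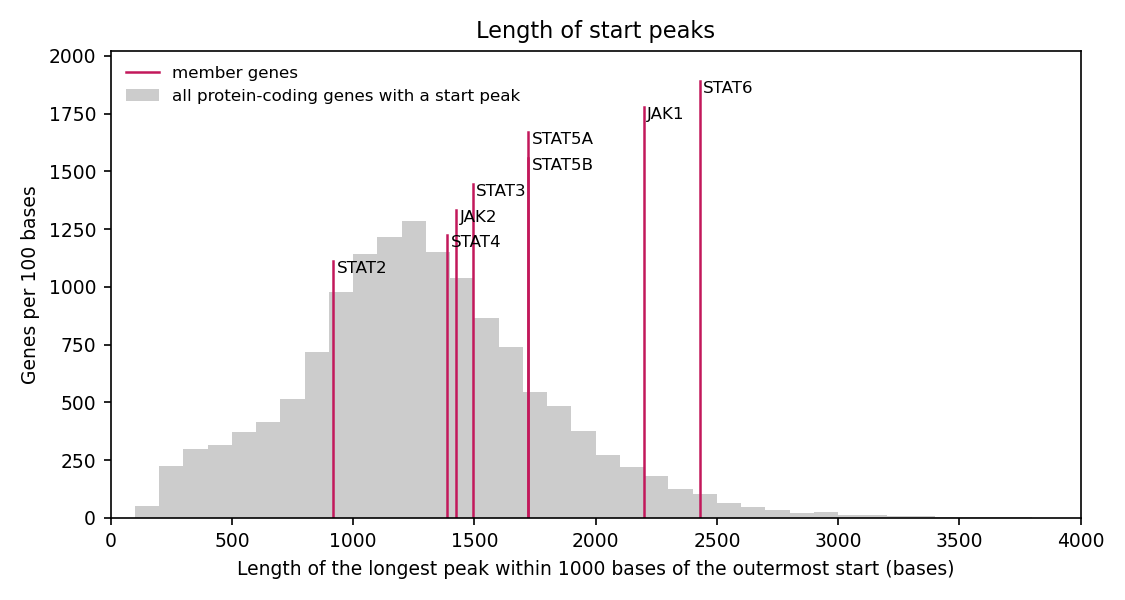
Lines mark the length of the longest peak within 1000 bases of the outermost start of 8 member genes, and the grey histogram gives the same for all protein-coding genes with a start peak (x axis in bases, y axis genes per 100 bases). STAT2 lies below the background median of 1256 bases and the other 7 above it; STAT5A and STAT5B share the peak of 1721 bases.

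The start peaks sat unevenly on their starts. At JAK2 the peak reached 40 bases upstream of the outermost start and 1384 bases into the gene, and at STAT4 41 bases upstream and 1346 bases inward. Both peaks therefore lay almost wholly on the transcribed side, where RefSeq has further starts of each gene. At STAT6 the peak ran 1232 bases upstream and 1195 bases inward, and at STAT3 766 and 725 bases, which is close to even. At STAT2 it ran the other way, with 686 bases upstream and 231 bases inward.

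JAK3, the kinase that pairs with the common gamma chain and is known mainly from lymphocytes, was the exception. Its nearest peak (chr19:17850223-17850922, 700 bases) ended 2241 bases upstream of the outermost start, so that with a window of 3000 bases all 9 genes had a peak, against 80.2% of protein-coding genes. Inside JAK3 a peak of 1275 bases (chr19:17841331-17842605) covered another annotated transcript start, 5457 bases inward. A peak of 1457 bases (chr19:17830092-17831548), the longest at the gene, was annotated to exon 21 of 24, and another of 349 bases to an intron. These last 2 carried the identifier of INSL3, the neighbour whose start was nearest, although they lay inside JAK3.

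A peak over a transcript start that the deposited annotation lists, at least 1000 bases inside the outermost start, was found in 7 of the 9 genes, against 22.6% of protein-coding genes. For the 22.6% any listed start on the strand of the gene counted, even one listed for another gene. In all 7 genes a start listed under the gene's own identifier was covered. The count is raised by how many transcripts a gene has and by how far RefSeq extends it, and neither was adjusted for. At JAK1 the inner start (chr1:64965431-64967027, 1597 bases) is that of the transcript Ensembl lists, 101242 bases inside the outermost RefSeq start. At STAT5B the inner start had a peak of 2226 bases (chr17:42275439-42277664). In STAT2 a peak of 1023 bases (chr12:56346050-56347072) lay over a start 13239 bases inward and was longer than the peak at the outermost start. The inner peaks were shorter than the outer ones in STAT3 (442 bases), STAT4 (557 bases) and STAT6 (645 bases). STAT5A and JAK2 had none by this measure. In STAT5A the start peak also covered the inner RefSeq start at 42288498, and a peak of 269 bases ended 28 bases before a listed start. Counting any RefSeq or listed start, all 9 genes had a peak, against 80.1% of protein-coding genes.

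**Figure D2:**
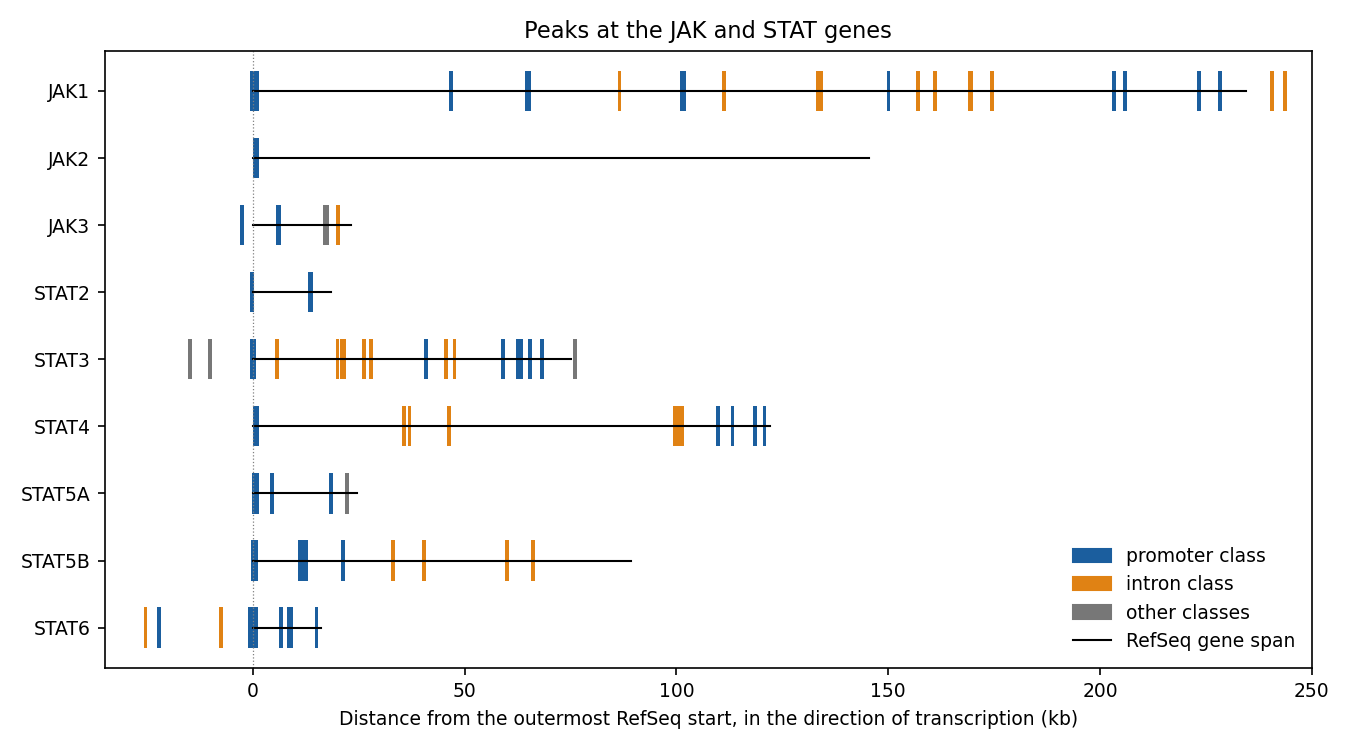
Each row is a gene drawn from its outermost RefSeq start at 0 in the direction of transcription (x axis in kb, black line the gene span), with blocks for peaks coloured by annotation class and short peaks widened to stay visible. JAK1 and STAT3 have 18 peaks each along and beside the gene, and JAK2 has 1, at its start.

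The number of peaks over the gene body, start peaks included, ranged from 1 at JAK2 to 16 at JAK1, with 15 at STAT3, 10 at STAT4, 7 at STAT5B, 5 at STAT6, 4 at STAT5A, 3 at JAK3 and 2 at STAT2. Per length the order was another. STAT6 had 3.13 peaks per 10000 bases, a density above that of 92.1% of 19974 protein-coding genes, and STAT3 had 1.997 (above 81.0%). JAK1, the longest of the genes with a span of 234518 bases, had 0.68 (above 40.3%). Among the 3351 protein-coding genes of at least 100000 bases, 61.9% had the density of JAK1 or a lower one, the median being 0.555. The median of the 9 genes was 1.08 peaks per 10000 bases, against 0.902 over protein-coding genes (interquartile range 0.377 to 1.69). By share of the span covered by peaks, STAT6 again came first with 18.5% and JAK3 followed with 13.3%, while the median was 6.78% over the 9 genes, against 5.38% over protein-coding genes.

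**Figure D3:**
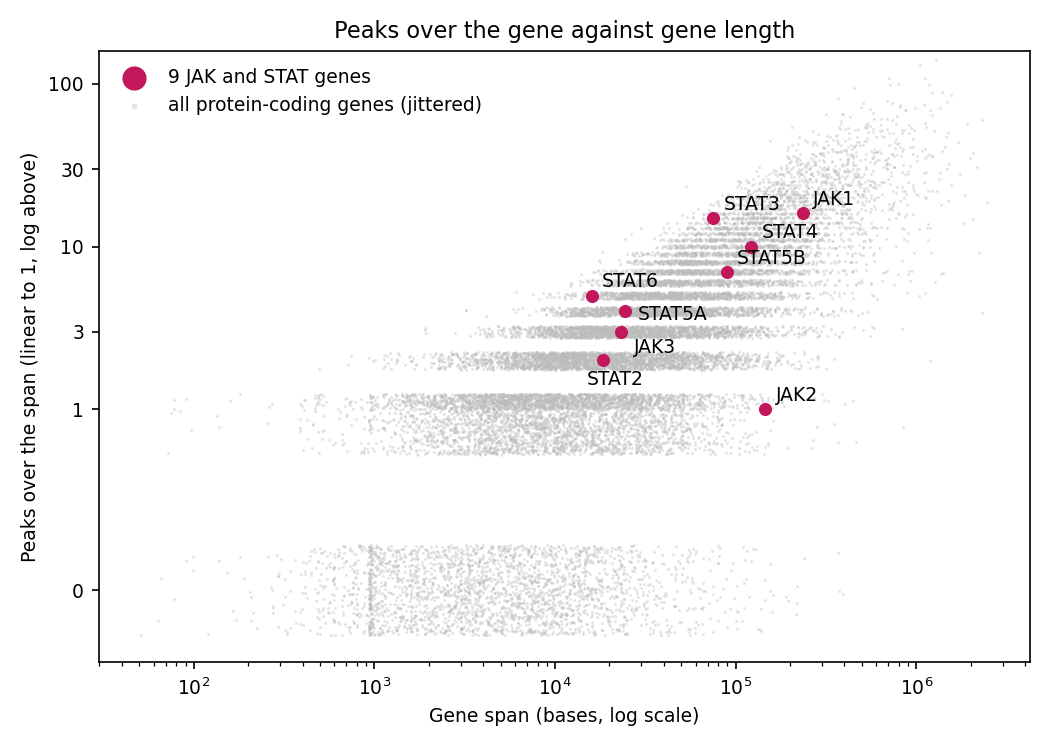
Points give the gene span (x axis, bases, log scale) and the number of peaks over it (y axis, linear up to 1 and log above) for the 9 genes, over a grey cloud of all protein-coding genes jittered vertically. STAT3 and STAT6 lie above most of the cloud at their lengths, and JAK2 lies below most of it with 1 peak over 145559 bases.

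JAK2, the kinase of the prolactin, growth hormone and erythropoietin receptors, held no peak beyond its start peak (chr9:4984350-4985774). The next peak in the list lay 200561 bases further on, near the start of INSL6, and the previous one 59843 bases before. Of the 3351 protein-coding genes with a span of at least 100000 bases, 3.55% had at most 1 peak, the median being 11. The density of 0.069 peaks per 10000 bases was reached or undercut by 83 of them (2.48%). The peak-free stretch within JAK2 had 144174 bases, and 9.07% of these genes held one at least as long. That share is not matched for gene length, since shorter genes cannot hold such a stretch and longer ones have more room for it. The 1 Mb centred on JAK2 held 32 peaks, its own empty stretch included, against a median of 51 over windows of 1 Mb with a peak (interquartile range 28 to 78.75). Of those windows 29.9% held 32 or fewer. The part of copy number on the short arm of chromosome 9 in this was not tested. RefSeq gives JAK2 another start at 5041532, and no peak touched its window.

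JAK1, unlike JAK2, held peaks beyond its start peak. Of its 18 peaks, 6 were annotated to intron 1 of 24, among them a peak of 1651 bases (chr1:64933244-64934894) and a peak of 1143 bases (chr1:64897673-64898815). Between the Ensembl start and the outermost RefSeq start, a stretch of 101242 bases, 5 peaks lay or reached in. They include a peak of 1402 bases over a start of LINC01359, a non-coding gene, and the outermost start peak, which carries the identifier of another gene. By identifier alone JAK1 had 10 peaks, 2 of which lay in the last intron of its neighbour RAVER2.

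STAT3, the factor of the IL-6 family, had its 18 peaks spread over the gene, all under its own identifier. Of these 6 lay in intron 1 of 23, between 344 and 637 bases long, and 2 in intron 4. Besides the start peak there were 6 promoter-class peaks beside annotated starts of shorter transcripts, and 1 of them covered such a start. Beyond the start, an intergenic peak of 572 bases lay 9749 bases upstream, and a peak of 404 bases 14588 bases upstream fell in the 3′ UTR of CAVIN1. These are tied to STAT3 as the nearest start only.

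STAT4, which transmits IL-12 signals and is known mainly from T and NK cells, had 10 peaks in 3 groups. At the 3′ end 6 peaks lay between 191030640 and 191052432 on chromosome 2. The longest peak of the gene was in this group, 1709 bases in intron 14 of 23 (chr2:191050724-191052432), longer than the start peak. A stretch of 52583 bases followed without a peak, then 3 peaks of 434 to 681 bases in intron 3, and the start peak. The 3 intron 3 peaks carried the identifier of RNU6-959P, a small RNA pseudogene inside the intron.

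STAT6 had 5 peaks inside its RefSeq span of 15955 bases and 3 upstream of it. Of the upstream peaks, 1 of 1047 bases (chr12:57118416-57119462) lay in intron 1 of a longer annotated STAT6 transcript. The others, of 637 and 476 bases, lay in LRP1, the next gene, and were tied to STAT6 by the start of another of its transcripts, at 57132139. STAT2 lies on the same chromosome, with 735300 bases between the spans and 58 peaks over that stretch, so STAT2 and STAT6 are not direct neighbours. Both STAT2 peaks covered a transcript start.

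STAT5B, STAT5A and STAT3 lie in a row of 189266 bases on chromosome 17, which held 26 peaks or 1.37 per 10000 bases. STAT5A and STAT5B are close paralogs activated by prolactin, growth hormone and IL-2 family receptors. Their start peaks, of 2226 bases at the inner STAT5B start and 1721 bases at STAT5A, were separated by 9461 bases without a peak. The outermost RefSeq start of STAT5B lies beyond this stretch, at 42288370, and inside STAT5A, so that both spans share 932 bases. All of these lay under the STAT5A start peak (chr17:42287126-42288846). That peak is counted for both genes, carries the STAT5A identifier, and could not be assigned to either start. The 3′ ends of STAT5A and STAT3 are 1380 bases apart, and a peak of 273 bases (chr17:42312319-42312591) lay between them, tied by the list to STAT3. In the body of STAT5B 4 intron peaks of 326 to 678 bases were found, of which 3 carried identifiers of other annotated genes within it.

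**Figure D4:**
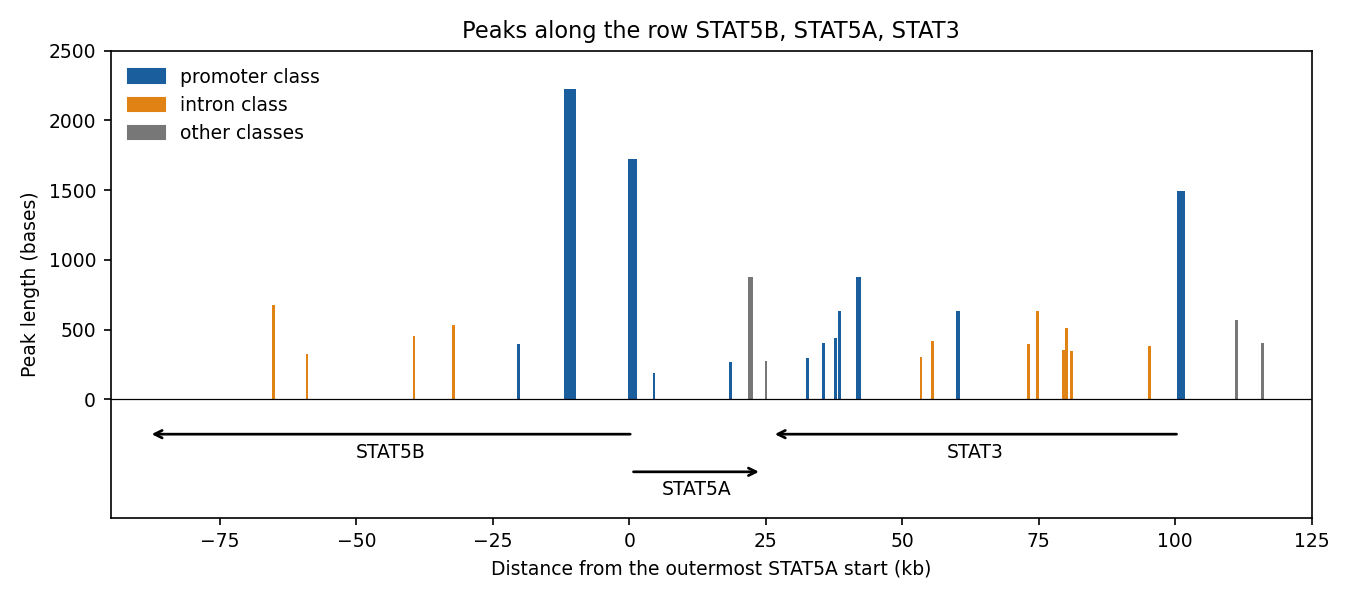
Bars show peak length (y axis, bases) against distance from the outermost STAT5A start (x axis, kb), coloured by annotation class with narrow peaks widened to stay visible, and arrows show the genes in the direction of transcription. The peaks at the starts of STAT5B (2226 bases), STAT5A (1721 bases) and STAT3 (1492 bases) exceed all other peaks of the row.

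Over the 71 peaks, 37 were in the promoter class, within 3000 bases of any annotated start (52.1%, against 30.4% of the whole list), and 29 in introns (40.8%, against 34.1%). Of the rest 2 lay in 3′ UTRs, 1 in an exon, 1 just downstream of a gene and 1 between genes. The rule takes peaks in and next to genes, so the low intergenic share (1.41%, against 29.6%) follows from it. This also raises the promoter and intron shares, so neither excess over the whole list can be read as a trait of these genes. Shares without the intergenic peaks were not compared. The 29 intron peaks had a median of 476 bases, against 489 bases over 55143 intron peaks of the list.

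The promoter windows differed widely in CpG content. RefSeq gives 17 windows for the 9 genes, and a peak touched 15 of them (88.2%), against 66.6% of 22132 windows of protein-coding genes. Windows of the same gene often share a peak and are not independent. The STAT5B window printed above held 55 CpG dinucleotides, more than 99.6% of all windows. The outermost STAT5A window held 3 and the inner one 37, and a single peak covered both over all 300 bases. Among all windows with 5 CpG or fewer, a peak touched 22.0%, and among those with more than 20 it touched 87.5%. All 3 member windows of the first kind, from STAT5A and STAT4, were touched, as were all 7 of the second. The windows that no peak touched, at JAK3 and at the inner JAK2 start, held 14 each, and 73.0% of windows with 11 to 20 were touched.

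The GAS element TTCNNNGAA, the site STAT dimers bind, was searched on both strands and matched 0 of the 17 windows, against 6.79% of all windows. The same half-sites 4 bases apart, the spacing that STAT6 prefers, matched 1 window (5.44% of all), at STAT5A as TTCCTCTGAA from base 22 of the outermost window printed above. The pattern TGANTCA, which takes any middle base and so is looser than the AP-1 site, matched 1 window (6.15% of all). This window lies at the outermost STAT4 start, and its match has A in the middle and is not called an AP-1 site. That window is shown with the match, TGAATCA, in capitals, and the STAT4 start peak covered 91 of its 300 bases.
STAT4, chr2:191151547-191151846, minus strand: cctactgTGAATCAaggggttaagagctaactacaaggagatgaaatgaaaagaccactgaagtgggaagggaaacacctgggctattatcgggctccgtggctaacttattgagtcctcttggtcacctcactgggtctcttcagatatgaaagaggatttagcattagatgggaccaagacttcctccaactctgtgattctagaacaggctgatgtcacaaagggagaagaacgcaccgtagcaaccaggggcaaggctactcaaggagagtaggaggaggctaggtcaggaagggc
The matched bases lie upstream of that peak's end, outside it. These matches describe letters in the reference and not binding.

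Among 68 other genes of the pathway, 55 had a start peak (80.9%, against the 71.6% of protein-coding genes given above). Receptors stood close to the background with 21 of 29 (72.4%). Long start peaks were found at OSMR (2120 bases) and IL6R (1836 bases), receptors of the IL-6 family, and at EPOR, the erythropoietin receptor (1646 bases). Receptor genes without one included IL2RA, IL2RB and IL2RG, the chains of the IL-2 receptor, IL12RB2 and IL23R, which signal to STAT4 and STAT3, and CSF2RB and CSF3R, which are known from blood cells. CSF3R had a peak within 3000 bases and peaks over 2 listed starts of its strand further inside, which may belong to another gene. IL2RG, the common gamma chain that JAK3 binds, had no peak over its body. The bodies of IL2RA and IL12RB2 held 3 peaks each, that of IL23R 4 and that of IL2RB 8. Other immune receptors of the same list had a start peak, among them IL7R (1490 bases), IL21R (891 bases), IL12RB1 (727 bases) and IL10RA (693 bases).

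Inhibitors had 16 of 18, led by SOCS1 (2640 bases), SOCS6 (1824 bases) and PIAS3 (1810 bases). PIAS2 and the phosphatase PTPN6 had none within 1000 bases of the outermost start, but each had a peak within 3000 bases. Ligands had 9 of 11, with CSF3 (1988 bases), IL12A (1427 bases) and IL6 (1366 bases) leading, and LIF and IL10 had no peak over the gene. Of the targets and partners 9 of 10 had one, led by FOS (2599 bases), PIM1 (2398 bases) and MCL1 (1631 bases), and TWIST1 had no peak. The strand of IL2RB, CSF2RB and TWIST1 was unknown, and neither end of these genes had a peak within 1000 bases. With 3000 bases the ends of IL2RB differed, so its state was not decided. The strand of SOCS2 was also unknown, and both of its ends had a peak within 1000 bases. Expression was not measured, so a start peak does not show that a gene is active.

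**Figure D5:**
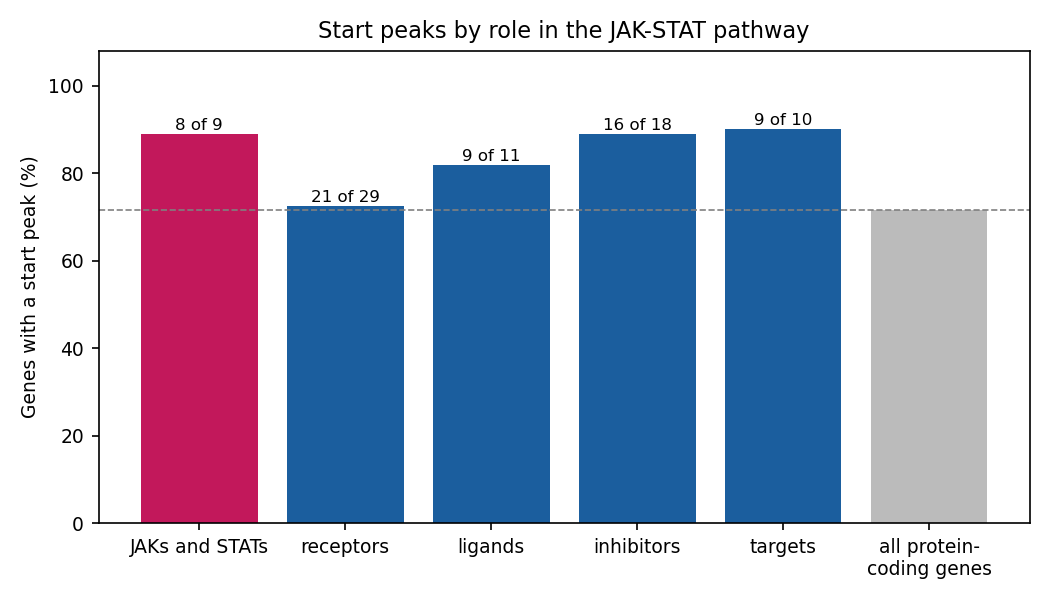
Bars give the percent of genes with a peak within 1000 bases of the outermost start for the JAK and STAT genes, for 4 lists of other pathway genes by role and for all protein-coding genes, with the last repeated as a dashed line (71.6%). Receptors sit at the line with 21 of 29, and the JAK and STAT genes have 8 of 9.

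As a check of the labelled cell type, start peaks were present at all 4 mesenchymal or basal markers (VIM, CD44, EGFR and AXL) and at 2 of 4 epithelial or luminal markers (ERBB2 and EPCAM), and absent at the outermost starts of CDH1 and ESR1. CDH1 had 8 and ESR1 28 peaks over the body, each with 1 over a listed inner start of its strand, which may belong to another gene. Of the leukocyte markers CD14 had one, PTPRC had none within 1000 bases but 9 peaks over its body, and CD3E and CD79A had no peak over the gene. As 71.6% of protein-coding genes had a start peak, 4 markers of a kind are a weak check.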

How the data were processed

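The authors processed ATAC-seq libraries of 5 ARID1A knockout and 5 control samples of MDA-MB-231 cells into 1 peak list, and the labels do not say whether these were separate cultures. Bowtie2 2.3.5.1, MACS2 2.2.6 and hg38 are named in the submitters' processing notes. The sources used here give neither the calling threshold, duplicate handling and Tn5 shift nor the merging across libraries and the annotation, which set the number and length of peaks. Per the file headers, the 17 columns of the deposited list hold positions, lengths and distances in bases and the nearest transcript. None holds a value per library, so no test was made and no depth is known.

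Gene spans came from RefSeq (GRCh38.p14), and all 9 genes matched. The Ensembl identifiers were taken from general knowledge. All their listed transcripts lay on the expected chromosome and strand. Strand came from RefSeq promoter windows for 15813 of 19974 protein-coding genes on chromosomes 1 to 22 and X. For 2921 it came from a listed transcript sharing at least 0.5 of the union with the gene. Both sources gave the same strand for 99.3% of 11891 genes. The other 1240 genes counted only where both ends or neither had a peak. The lookup was tested on simulated intervals. The genes, lists and motifs were chosen with earlier results of these data known. Named pathway genes are all without a start peak and up to 3 per role with the longest, besides some further receptors with a start peak. An item that this rule takes is not reported here. CpG counts, the stretches between genes and the long-gene comparison were added after the list was read. Python 3.11.15, numpy 2.4.6, pandas 2.3.3 and matplotlib 3.10.9 were used.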

Additional observations from a re-analysis of the deposited data

How the results depend on the processing

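No paired analysis was possible because the peaks carry no values of single libraries. No library could be left out either, and what depth limits is unknown. JAK and STAT genes with a start peak, 8 of 9 in the report, numbered 9 with a window of 3000 bases or at any annotated start. They numbered 8 with a window of 500 bases or with peaks of the median length (539 bases) or longer. The share of protein-coding genes was 71.6% in the report, 80.2% with 3000 bases and 80.1% at any annotated start. With 500 bases it was 67.9%, and with longer peaks 66.0%. Of the 68 other pathway genes 55 had a start peak in the report (against 71.6% of protein-coding genes) and 52 with longer peaks (against 66.0%). With 3000 bases 58 of the 67 that could be decided had one, against 80.2%. The 71 peaks were 53 by identifier alone, 62 by overlap alone and 59 where at least 50% of the peak lay inside a span. The median density fell to 0.666 peaks per 10000 bases with longer peaks alone, against 1.08, since fewer peaks are counted. For single genes, 7 of 27 such alternatives moved the count by over 1.5 times. By identifier alone JAK1 had 10 peaks, JAK3 2, STAT4 6 and STAT5B 2, because the other peaks over their spans, in introns, at starts or in an exon, carry identifiers of genes within or beside them. STAT6 had 5 by overlap alone, and with at least 50% of the peak inside the span STAT6 had 4 and STAT2 had 1.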
